A study of Mus musculus with 3 samples.

Results

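The genes described here encode the machinery that docks, primes and fuses synaptic vesicles, together with the relatives of those proteins that serve fusion elsewhere in the cell. Members were taken by platform gene symbol: symbols that start with Syt, Stx, Vamp, Cplx, Sv2, Rab3, Syngr, Unc13, Rims or Doc2, and the symbols Syp, Syn1, Syn2, Syn3, Snap23, Snap25, Snap29 and Snap91. The rule found 139 of 25697 probes, for 94 of 16593 genes. Its first letters also take in 12 genes from Rab30 to Rab39, small GTPases outside the Rab3 subfamily, which are kept as members and described separately.

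The cells were Hb9-GFP mouse embryonic stem cells, in which green fluorescent protein (GFP) marks expression of Hb9, a transcription factor of motor neurons that Mnx1 encodes. Stem cells maintained on feeder cells were, per the labels, turned into motor neurons in embryoid bodies by retinoic acid with purmorphamine, a Hedgehog pathway agonist, so all groups share the reporter line and both agents. The sorted populations were GFP high, which the labels name as motor neurons, then GFP low and GFP negative, with 1 bead array each. The cells were sorted by GFP level, not by synaptic maturity, and the labels do not say whether the populations came from 1 culture or several.

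With 1 array per population there was no replicate, no test and no p-value, so precision is limited by the number of arrays. Values below are background-corrected, quantile-normalised log2 signals, and each gene is represented by the probe with the highest mean signal. Detected means a detection p-value below 0.01. A difference was counted from 2-fold upward, over genes detected in either population of the pair. Between probes of 1 gene, the SD of a log2 difference was 0.33 for the GFP high and negative pair, 0.26 for high and low, and 0.29 for low and negative, over 2370 genes with at least 2 detected probes. This is a gauge of probe choice only, and leaves out the spread between cultures, sorts and amplifications.

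At a nerve terminal, syntaxin and Snap25 on the plasma membrane wind together with Vamp2 on the vesicle into a SNARE complex that pulls the membranes into contact. Synaptotagmins sense calcium and trigger that step, complexins hold the complex ready, Munc18 proteins (the Stxbp genes) and Munc13 proteins (the Unc13 genes) prepare it, and RIM proteins and Rab3 tether vesicles at the active zone. Every cell also runs constitutive fusion between its internal membranes with other syntaxins and Vamps, so each family holds neuronal and widely expressed members.

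Promoter windows of 300 bases, from 250 before to 50 after the annotated start, were available for 70 of the 94 member genes in RefSeq (GRCm38.p6), 91 windows in all. The deposited files give no genome build, so positions are those of RefSeq. Windows are shown for genes on which the comparisons turn: the plasma membrane SNARE gene Stx1a (chr5:135023232-135023531, plus strand) and the vesicle glycoprotein gene Sv2a (chr3:96180977-96181276, plus strand), both higher in the GFP high sort than in the GFP negative sort, the synaptogyrin gene Syngr2 (chr11:117809417-117809716, plus strand) and the endosomal Vamp gene Vamp8 (chr6:72390618-72390917, minus strand), both lower, and the synapsin gene Syn1 (chrX:20920869-20921168, minus strand). Capitals mark the GC box GGGCGG, the cAMP response element TGACGTCA and TTCAGCACC, the first block of the element bound by REST, a repressor of neuronal genes, each searched on both strands.
Stx1a: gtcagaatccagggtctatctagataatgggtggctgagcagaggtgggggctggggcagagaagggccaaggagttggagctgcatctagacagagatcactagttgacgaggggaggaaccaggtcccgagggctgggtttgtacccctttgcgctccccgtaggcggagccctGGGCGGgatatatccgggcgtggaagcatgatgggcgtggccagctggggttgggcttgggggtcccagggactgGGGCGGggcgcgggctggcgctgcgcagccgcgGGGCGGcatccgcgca
Sv2a: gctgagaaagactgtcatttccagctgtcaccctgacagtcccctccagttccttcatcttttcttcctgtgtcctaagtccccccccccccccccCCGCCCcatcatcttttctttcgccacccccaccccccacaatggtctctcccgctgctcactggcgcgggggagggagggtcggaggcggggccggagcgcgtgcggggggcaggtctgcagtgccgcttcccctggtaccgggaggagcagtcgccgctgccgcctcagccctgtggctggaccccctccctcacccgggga
Syn1: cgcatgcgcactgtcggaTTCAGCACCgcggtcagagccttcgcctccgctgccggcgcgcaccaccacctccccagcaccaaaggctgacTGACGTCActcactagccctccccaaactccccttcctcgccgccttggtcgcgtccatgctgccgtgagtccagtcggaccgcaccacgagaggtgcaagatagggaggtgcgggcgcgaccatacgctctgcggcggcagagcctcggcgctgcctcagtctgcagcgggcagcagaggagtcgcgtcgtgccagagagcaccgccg
Syngr2: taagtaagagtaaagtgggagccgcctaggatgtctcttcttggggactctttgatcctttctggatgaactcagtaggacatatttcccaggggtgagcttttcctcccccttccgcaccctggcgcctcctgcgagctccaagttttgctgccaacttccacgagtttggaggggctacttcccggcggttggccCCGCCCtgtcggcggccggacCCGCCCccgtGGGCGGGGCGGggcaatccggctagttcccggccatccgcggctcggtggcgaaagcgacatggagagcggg
Vamp8: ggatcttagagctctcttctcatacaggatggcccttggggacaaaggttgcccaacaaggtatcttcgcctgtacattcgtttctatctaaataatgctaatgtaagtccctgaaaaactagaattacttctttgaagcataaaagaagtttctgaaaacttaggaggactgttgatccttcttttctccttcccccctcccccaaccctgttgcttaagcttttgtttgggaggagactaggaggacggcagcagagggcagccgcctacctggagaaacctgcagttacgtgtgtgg
The Syn1 window held the REST block and a cAMP response element, and was the only 1 of 91 member windows with the REST block. That block was in 0.393% of the 16535 windows of genes on the array, and the cAMP response element was in 2 member windows and in 2.36% of the array's windows. The GC box was in 61.5% of member windows, against 49.6% of the array's windows. Its count did not follow the direction of the genes shown: the Stx1a window held 3 and the Sv2a window 1, while the Syngr2 window held 4, some of them overlapping, and the Vamp8 window 0. The windows were 66.3%, 68.0%, 68.3%, 63.0% and 46.7% G and C for Stx1a, Sv2a, Syn1, Syngr2 and Vamp8.

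The sort was checked on marker genes. Of 8 motor neuron markers, 7 were detected, and 6 were at least 2-fold higher in the GFP high sort than in the GFP negative sort, Mnx1 by 7.09-fold and Chat by 50.2-fold. Isl2, not detected in GFP negative cells, was at least 1.46-fold higher. The probe for Slc5a7 was not detected. Of 10 general neuronal markers, 8 were detected, and the probes for Nefl and Tubb3 were not. Of the 8, 7 were at least 2-fold higher, with mean log2 signals of 11.12 (GFP high), 10.54 (GFP low) and 9.26 (GFP negative). GFP negative cells thus still carried neuronal RNA. Of 8 neural progenitor markers, 7 were detected, and the probe for Pax6 was not. Of the 7, 5 were at least 2-fold lower, with mean log2 signals of 8.28, 9.12 and 9.74 in GFP high, low and negative cells. Vim was 1.63-fold lower, and Olig2 went the other way, 1.41-fold higher in the GFP high sort than in the GFP negative sort. The 4 markers of dividing cells with a probe had mean log2 signals of 7.95 (GFP high), 9.67 (GFP low) and 10.42 (GFP negative). Of 7 fibroblast and feeder markers, Sparc and Acta2 were detected and Col1a1, Col1a2, Col3a1, Pdgfrb and Thy1 were not. The summed deposited intensity of all 7 was 734 (GFP high), 931.7 (GFP low) and 2655 (GFP negative). Sparc alone had 147.4, 340.4 and 2017.5, so the sums differed mostly through this 1 gene. Of 5 endoderm markers, Sox17 and Gata6 were detected, in GFP negative cells only, with summed intensities of 464.8, 502.7 and 745.6 for GFP high, low and negative cells. Of 6 interneuron markers, all but Gad2 were detected, with summed intensities of 5908, 6263 and 1612 for GFP high, low and negative cells. Slc32a1 made up most of each sum, at 3856.0, 4480.4 and 942.2. En1, Pax2 and Gad1 had log2 signals of 9.26, 8.48 and 9.58 in GFP high cells, above 8.37, 7.76 and 9.25 in GFP low cells. Slc32a1 was level between these populations, at 12.00 and 12.05, and Slc17a6 was lower in GFP high cells, at 5.19 against 7.06. The part of these other cells in the differences below was not tested, and in a sorted pool fewer cells of a type and less RNA per cell cannot be told apart.

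Of the 94 member genes, 58 were detected in some population and 48 in every one. This was 61.7% of members, against 52.7% of all genes. Of the detected members, 9 were at least 2-fold higher in the GFP high sort than in the GFP negative sort, which is 15.5%, against 6.98% of all genes. Another 8 were at least 2-fold lower, which is 13.8%, against 9.88% of all genes. Members thus passed 2-fold both ways, with the lower share closer to that of all genes than the higher share. The higher members were Syt1, Rab3a, Syt4, Sv2a, Vamp2, Stx1a, Rab33a, Snap91 and Stx12. The lower ones were Vamp8, Syngr1, Syngr2, Rab32, Syt9, Snap23, Rab34 and Doc2a. The median log2 difference of the members was 0.35, against 0.02 for all genes, and 0.28 with undetected genes at their bound. Folds given as at least are lower bounds, used when the dimmer array did not detect the gene. Setting such genes to their bound left 8 higher and 6 lower of 58 members, against 527 and 745 of 8613 genes. Members above 0 at any size numbered 37, which is 63.8%, against 51.5% of all genes.

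The counts lean on how dim signals are handled. Without the normexp background step, 5 of the 9 higher members and 1 of the 8 lower members stayed past 2-fold: Stx1a, Vamp2, Syt4, Sv2a and Rab3a above, and Rab34 below. The members' median was 0.12 without that step, 0.18 with an offset of 50 and 0.08 with no detection filter, against 0.35 as given above.

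**Figure D1:**
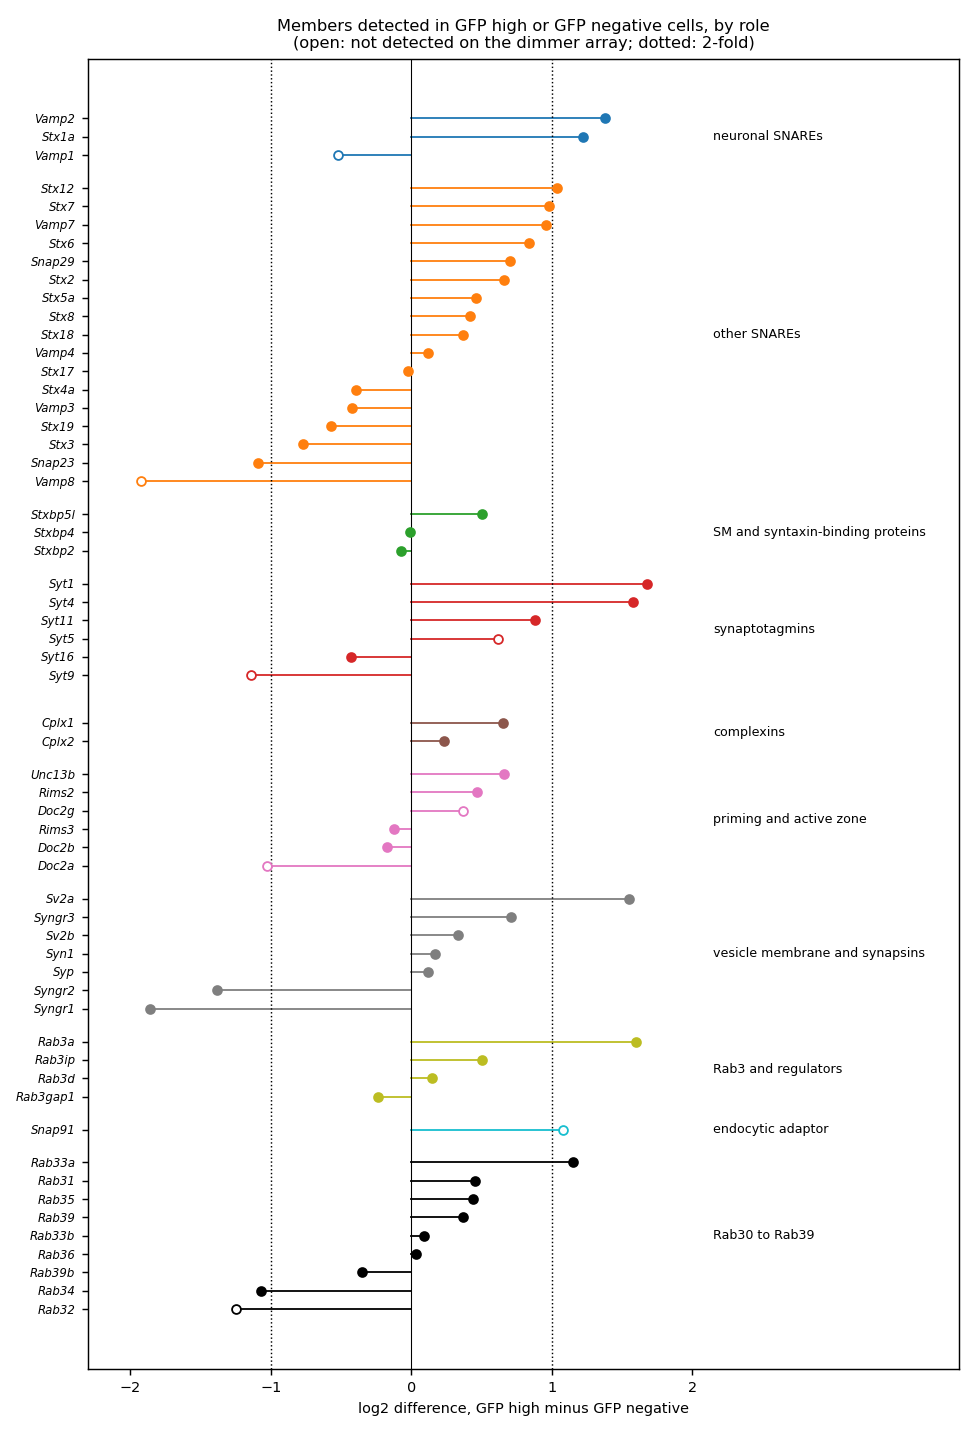
Log2 difference of GFP high minus GFP negative signal (horizontal axis) for the 58 member genes detected in either population, 1 row a gene by its brightest probe, grouped by role and sorted within each role. Dotted lines mark 2-fold and open circles a gene not detected on the dimmer array. Syt1 lies farthest to the right at 1.68 and Vamp8 farthest to the left at -1.92.

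Among the neuronal SNARE genes, both the syntaxin and the Vamp of the synaptic vesicle were higher in GFP high cells. Vamp2, the vesicle SNARE, had log2 signals of 10.25 (GFP high), 9.81 (GFP low) and 8.87 (GFP negative), from deposited intensities of 1235.0, 1020.3 and 559.1. It was 2.60-fold higher in the GFP high sort than in the GFP negative sort. Stx1a, the plasma membrane syntaxin of synapses, had log2 signals of 9.46, 8.95 and 8.24 in GFP high, low and negative cells, and was 2.33-fold higher in the GFP high sort than in the GFP negative sort. GFP low cells lay between the other populations for both genes. The third partner, Snap25, was not detected: its only probe had deposited intensities of 90.0 (GFP high), 89.9 (GFP low) and 86.8 (GFP negative), and its detection p-values were 0.711, 0.856 and 0.954. Vamp1, a close relative of Vamp2 known from motor neurons, had 4 probes, all near background, and its 2 detected probes disagreed. The brighter gave log2 signals of 4.98, 5.09 and 5.50 in GFP high, low and negative cells and the other gave 5.62, 4.91 and 4.62, so no direction is given for Vamp1.

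The other SNARE genes serve fusion at endosomes, the Golgi and the plasma membrane of many cell types. Of 19 genes, 17 were detected, with 1 at least 2-fold higher and 2 lower. These are 5.88% and 11.8%, close to the 6.98% and 9.88% of all genes. Stx12, a syntaxin of recycling endosomes, was 2.06-fold higher than in GFP negative cells, with log2 signals of 9.72, 9.32 and 8.68 in GFP high, low and negative cells. Close below 2-fold were Stx7, a late endosomal syntaxin, at 1.98-fold, Vamp7, a Vamp of late endosomes and growing neurites, at 1.94-fold, and Stx6, of the trans-Golgi network, at 1.79-fold. The lower genes were Vamp8 and Snap23. Vamp8, first described on endosomes of epithelial cells, had log2 signals of 4.62, 4.86 and 6.54 in GFP high, low and negative cells and was detected in GFP negative cells alone. It was at least 2.66-fold lower in the GFP high sort than in the GFP negative sort, and a second, undetected probe gave a log2 difference of -0.52. Snap23, the relative of Snap25 in non-neuronal cells, had log2 signals of 7.85, 8.45 and 8.94 in GFP high, low and negative cells and was 2.12-fold lower in the GFP high sort than in the GFP negative sort. The second Snap23 probe was not detected in any population and gave a log2 difference of 0.11. The mean of its probes, -0.49 and short of 2-fold, therefore takes in a probe at background. Stx3 and Stx4a, plasma membrane syntaxins of epithelial and other cells, were 1.70-fold and 1.31-fold lower. Vamp3, the Vamp of recycling endosomes, was 1.34-fold lower by the brightest probe, while the second gave a log2 difference of -1.13. The remaining members differed by less than 2-fold and included Stx5a of the Golgi at 1.38-fold higher, Stx18 of the endoplasmic reticulum at 1.29-fold higher and the autophagosomal Stx17 at 1.02-fold lower. For Stx8 the brightest probe was 1.34-fold higher, and all 4 of its probes ranged from 0.35 to 1.59 in log2 difference. The median of the group was 0.37. The probes for Stx16 and Vamp5 were not detected.

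The syntaxin-binding genes were close to level. Stxbp2, the Munc18 form of blood and epithelial cells, had log2 signals of 9.78 (GFP high), 9.62 (GFP low) and 9.85 (GFP negative). Stxbp4 was 1.01-fold lower in the GFP high sort than in the GFP negative sort by its brightest probe, with a log2 difference of 0.66 by its other probe. Stxbp5l, the tomosyn relative that binds syntaxin in neurons, was 1.42-fold higher. Stxbp3 and Stxbp6 were not detected.

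**Figure D2:**
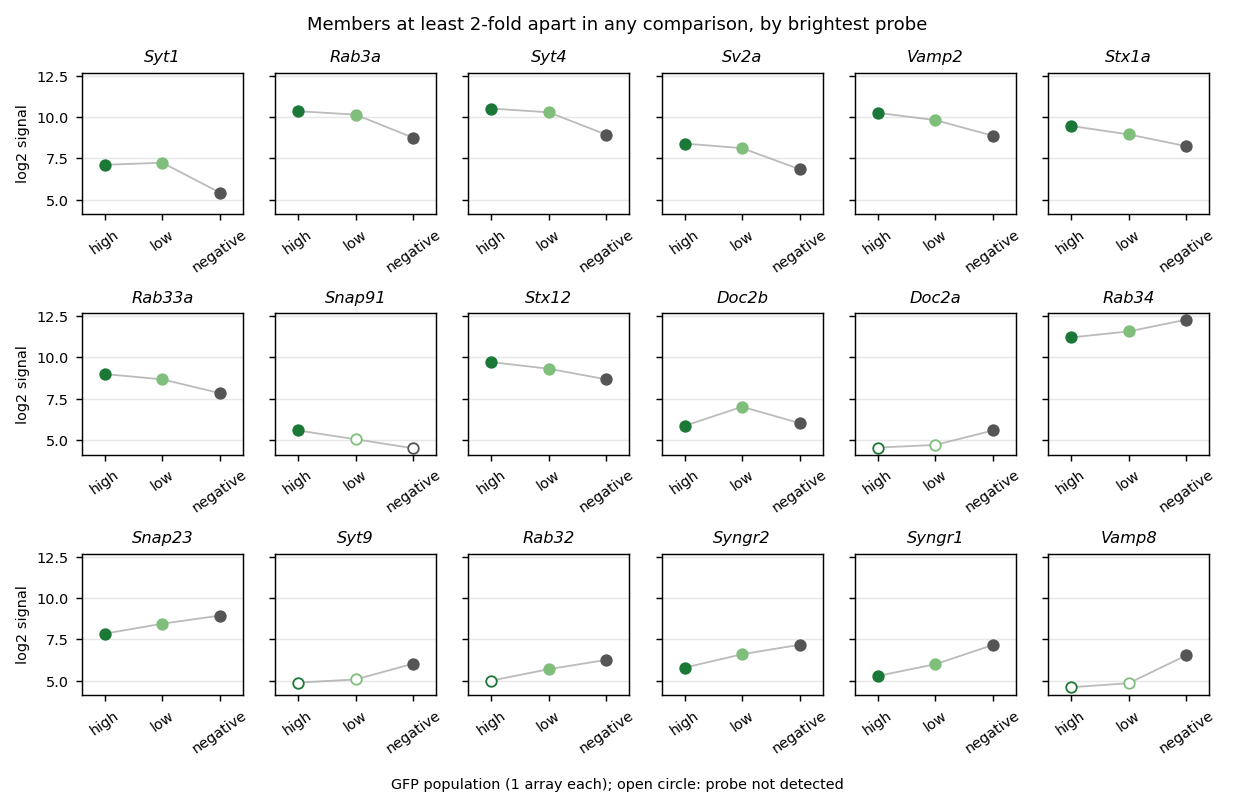
Log2 signal (vertical axis) on the GFP high, GFP low and GFP negative array for the 18 member genes at least 2-fold apart in any comparison, ordered by the difference of GFP high minus GFP negative. Filled circles are detected probes, and open circles are not detected. Syt1, Rab3a, Syt4 and Sv2a are at like levels on the GFP high and low arrays, and Doc2b peaks on the GFP low array.

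Among the synaptotagmins, Syt1 and Syt4 were at least 2-fold higher in the GFP high sort than in the GFP negative sort. Syt1, the calcium sensor of fast transmitter release, had log2 signals of 7.12 (GFP high), 7.24 (GFP low) and 5.44 (GFP negative), from deposited intensities of 207.2, 242.0 and 122.7. It was 3.20-fold higher in GFP high and 3.47-fold higher in GFP low than in GFP negative cells. GFP high and low cells differed by 1.09-fold, within the spread between probes. Without the normexp step the log2 difference of Syt1 was 0.83 between GFP high and negative cells, short of 2-fold. Syt4, a synaptotagmin of neuronal and neuroendocrine vesicles, had log2 signals of 10.51, 10.28 and 8.93 in GFP high, low and negative cells, also close between the high and low populations, and was 2.99-fold higher in the GFP high sort than in the GFP negative sort. Syt11, which does not bind calcium, was 1.84-fold higher on the brightest probe, with deposited intensities of 12449.5, 11518.9 and 7348.8 in GFP high, low and negative cells, and its other probes gave log2 differences of 1.66 and 0.89. In the other direction, Syt9, a calcium sensor related to Syt1, was detected in GFP negative cells alone, with log2 signals of 4.90, 5.09 and 6.04 in GFP high, low and negative cells, and was at least 1.89-fold lower in the GFP high sort. Syt5 and Syt16 were near background, the first at least 1.33-fold higher and the second 1.34-fold lower in GFP high cells. Of 17 synaptotagmin genes, 11 were not detected by their brightest probe: Syt2, Syt3, Syt6, Syt7, Syt8, Syt10, Syt12, Syt13, Syt14, Syt15 and Syt17. Syt2 is a calcium sensor of mature motor terminals, and Syt12 had a dimmer probe that was detected in GFP low cells. All 5 synaptotagmin-like genes, Sytl1 to Sytl5, were also not detected.

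The complexins, Munc13 and RIM genes that were detected lay under 2-fold between GFP high and GFP negative cells. Cplx1, the complexin that clamps and assists neuronal SNARE complexes, had log2 signals of 8.65 (GFP high), 8.27 (GFP low) and 7.99 (GFP negative), a difference of 1.57-fold between GFP high and negative cells. Cplx2 differed by 1.17-fold, and Cplx3 and Cplx4, known from the retina, were not detected. Unc13b, a Munc13 that primes docked vesicles, was 1.58-fold higher in the GFP high sort than in the GFP negative sort. Rims2, an active zone scaffold that binds Rab3, was 1.39-fold higher, and Rims3, a short form of the family, was 1.08-fold lower. The genes of Doc2 proteins, which include calcium sensors with high affinity, differed in which population gave the highest signal. Doc2b had log2 signals of 5.88 (GFP high), 7.03 (GFP low) and 6.04 (GFP negative), and was highest in GFP low cells by both of its probes. Doc2a, detected in GFP negative cells alone, was at least 1.39-fold lower in the GFP high sort. Doc2g was detected in GFP high cells alone, at least 1.10-fold higher there than in GFP negative cells. Unc13c, Unc13d, Rims1 and Rims4 were not detected, and no probe carries the symbol Unc13a.

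Genes of the vesicle membrane and synapsins had 7 detected of 10, with 1 at least 2-fold higher and 2 lower. With so few genes these counts, 14.3% and 28.6% against 6.98% and 9.88% of all genes, describe the named members only. Sv2a, a vesicle glycoprotein present on nearly all synaptic vesicles, had log2 signals of 8.40 (GFP high), 8.12 (GFP low) and 6.85 (GFP negative) and was 2.93-fold higher in the GFP high sort than in the GFP negative sort. Its second probe gave 8.18, 8.21 and 6.61, a log2 difference of 1.57 against 1.55 for the first. Syp, encoding the abundant vesicle protein synaptophysin, was nearly level at 9.97, 10.17 and 9.85 in GFP high, low and negative cells. The difference between GFP high and negative cells was thus past 2-fold for Sv2a and within the spread between probes for Syp. Syn1, which ties vesicles to the cytoskeleton, was split by its probes: the brighter had a log2 difference of 0.17 between GFP high and negative cells, and the other, at 8.01 in GFP high and 6.88 in GFP negative cells, had 1.14. Syn2 and Syn3 were not detected.

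The synaptogyrins, vesicle proteins with neuronal and widely expressed forms, differed among themselves. Syngr2, also called cellugyrin and found outside neurons, had log2 signals of 5.80 (GFP high), 6.61 (GFP low) and 7.18 (GFP negative), 2.60-fold lower in the GFP high sort than in the GFP negative sort. All 3 of its probes were lower, at log2 differences from -2.35 to -1.38. Syngr3, a neuronal synaptogyrin, was 1.63-fold higher in the GFP high sort than in the GFP negative sort. Syngr1 was 3.64-fold lower in the GFP high sort than in the GFP negative sort by its brightest probe, with log2 signals of 5.30, 6.01 and 7.17 in GFP high, low and negative cells. The platform ties its 4 probes to 2 RefSeq transcripts. Those of the first transcript had log2 differences of -1.86 and -0.29, and those of the second had 0.87 and 0.17. The probe at 0.87 was not detected in GFP negative cells, and its fold was at least 1.22. The probe at 0.17 was detected in GFP low cells alone, so it gives no direction for GFP high against negative. Averaged over the probes the log2 difference was -0.28, so the value for the gene depends on the probe. Sv2b was 1.26-fold higher, and Syngr4 was not detected.

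Rab3a, the main Rab GTPase of synaptic vesicles, had log2 signals of 10.35 (GFP high), 10.14 (GFP low) and 8.75 (GFP negative), from deposited intensities of 1316.8, 1266.4 and 516.7. It was 3.03-fold higher in GFP high and 2.62-fold higher in GFP low than in GFP negative cells. Its relative Rab3d, known from exocrine glands, was level at 7.36, 7.41 and 7.21, and Rab3b and Rab3c were not detected. The regulators differed little, with Rab3ip 1.41-fold higher and Rab3gap1, a subunit of the GTPase-activating complex for Rab3, 1.18-fold lower. Rab3il1 was not detected. Snap91, a clathrin adaptor that retrieves vesicle membrane after fusion, was detected in GFP high cells alone, with log2 signals of 5.60, 5.07 and 4.53 in GFP high, low and negative cells, at least 1.38-fold higher than in GFP negative cells.

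Of the 12 genes from Rab30 to Rab39, 9 were detected, with 1 at least 2-fold higher and 2 lower, which is 11.1% and 22.2%, against 6.98% and 9.88% of all genes. Rab33a, a GTPase of vesicles that move along axons, was 2.22-fold higher in the GFP high sort than in the GFP negative sort. Rab34, which acts in the assembly of primary cilia, had log2 signals of 11.21 (GFP high), 11.57 (GFP low) and 12.28 (GFP negative) and was 2.10-fold lower in the GFP high sort than in the GFP negative sort, with all 3 probes between -1.07 and -0.83. Rab32, of melanosomes and related organelles, was at least 2.21-fold lower. Rab30, Rab37 and Rab38 were not detected.

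Between GFP high and GFP low cells few members were 2-fold apart, as was so for all genes. Of 54 detected members, 0 were at least 2-fold higher in the GFP high sort, against 1.10% of all genes, and 1 was at least 2-fold lower, which is 1.85%, against 4.17% of all genes. The authors' value table gave 2 higher members, Doc2g and Sv2b, and 4 lower, Doc2b, Rab32, Syngr1 and Syngr2. The lower gene was Doc2b, 2.23-fold lower in GFP high cells by its brightest probe, with a log2 difference of -0.71 by the other. With the probes averaged its log2 difference was -0.93, and without the normexp step -0.61, both short of 2-fold. The median log2 difference of members was 0.17, against 0.03 for all genes, and 34 were above 0, which is 63.0%, against 53.5% of all genes. The remaining 53 genes lay under 2-fold, with Syngr2 at 1.76-fold lower and Syngr1 at 1.63-fold lower. Of the 7 detected motor neuron markers, 6 were at least 2-fold higher in the GFP high sort than in the GFP low sort, and Isl2, not detected in GFP low cells, was at least 1.47-fold higher.

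Between GFP low and GFP negative cells, 4 of 56 detected members were at least 2-fold higher in GFP low cells, against 3.37% of all genes, and 2 were at least 2-fold lower, against 2.68% of all genes. The higher genes were Syt1 at 3.47-fold, Rab3a at 2.62-fold, Syt4 at 2.55-fold and Sv2a at 2.41-fold. Each of these 4 was also at least 2-fold higher in the GFP high sort than in the GFP negative sort, and both comparisons share the GFP negative array. The lower genes were Vamp8, at least 2.66-fold, and Syngr1 at 2.23-fold. Vamp2 at 1.91-fold and Stx1a at 1.64-fold higher stayed under 2-fold. The median was 0.21, against -0.02 for all genes, and 34 were above 0, which is 60.7%, against 48.0% of all genes. Of 6 motor neuron markers detected in either population, 3 were at least 2-fold higher in GFP low cells. Mnx1, which encodes Hb9, was only 1.10-fold higher there, with log2 signals of 5.30 (GFP low) and 5.16 (GFP negative), near the lowest detected signal.

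For genes detected on all 3 arrays and at least 2-fold apart between GFP high and negative cells, the place of GFP low was scaled so that 1 is the GFP high and 0 the GFP negative signal. The 8 higher members had places from 0.59 for Stx1a to 1.07 for Syt1, with a median of 0.77, against a median of 0.66 over 476 higher genes in all. Vamp2 was at 0.67, Sv2a at 0.82, Syt4 at 0.85 and Rab3a at 0.87. All 8 thus lay nearer to the GFP high level, as did 73.9% of the 476 genes. The 4 lower members lay between 0.41 for Syngr2 and 0.66 for Rab34.

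Agreement between probes could be read in 15 members with at least 2 detected probes. In 11 of them all detected probes had the same sign for GFP high minus GFP negative. The probes differed in sign for Doc2b, Stxbp4, Syngr1 and Vamp1. Of these genes only Stxbp4 had all these probes detected on all 3 arrays. The range of a gene's probes reached 1 or more on the log2 scale in Stx8, Syngr1 and Vamp1. The Stx8 probe at 1.59 was detected in GFP high cells alone, and its fold was at least 1.94. Stx1a, Vamp2, Syt1, Syt4 and Rab3a each rest on 1 probe, and Sv2a on 2 that gave nearly the same difference.

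**Figure D3:**
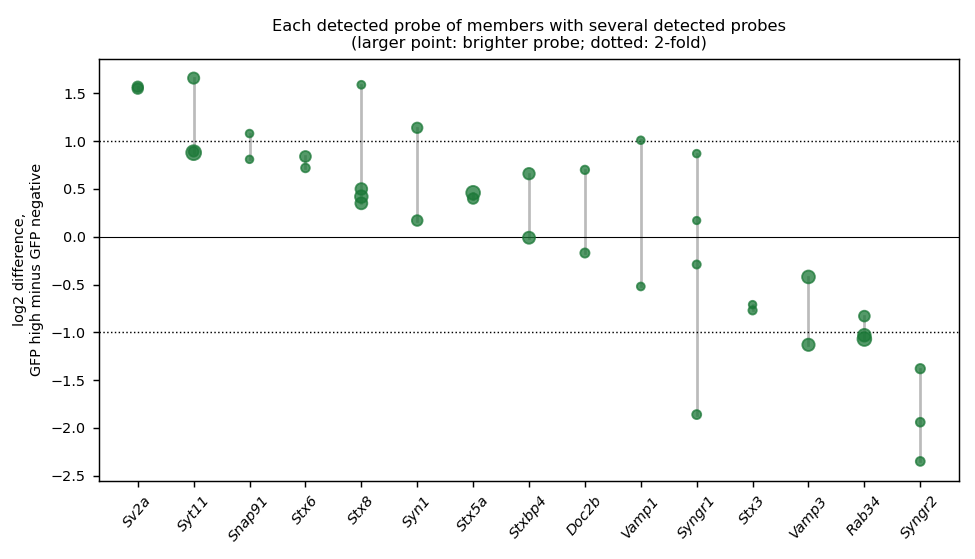
Log2 difference of GFP high minus GFP negative (vertical axis) for each detected probe of the 15 member genes with at least 2 detected probes, with larger points for brighter probes and dotted lines at 2-fold. Probes detected on any of the 3 arrays are shown, so some differences include a signal below detection. The 3 Syngr2 probes all lie below -1, both Sv2a probes lie above 1.5, and the Syngr1 probes spread from -1.86 to 0.87.

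Release genes outside these families were described from 4 lists, to be read against 6.98% of all genes at least 2-fold higher, 9.88% lower and a median of 0.02. Of 17 genes of other SNAREs and SNARE disassembly, all were detected, with 1 at least 2-fold higher in the GFP high sort than in the GFP negative sort, which is 5.88%, 0 lower and a median log2 difference of 0.21. The higher gene was Napb, the brain form of the adaptor that brings the ATPase Nsf to spent SNARE complexes, with log2 signals of 9.40 (GFP high), 8.91 (GFP low) and 7.79 (GFP negative). Nsf itself was level at 10.64, 10.48 and 10.54. Of this list Napb alone was past 2-fold.

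Among 8 detected active zone and priming genes, those past 2-fold were 1 higher and 1 lower gene, a pair of paralogues, 12.5% each way, and the median was 0.56. Cadps, which primes dense-core vesicles, had log2 signals of 10.26 (GFP high), 9.69 (GFP low) and 7.83 (GFP negative), a log2 difference of 2.44 between GFP high and negative. Its paralogue Cadps2 had 5.78, 7.07 and 7.24, a log2 difference of -1.46.

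Other vesicle proteins had 18 detected genes, of which 6 were past 2-fold upward, 33.3% against 6.98% of all genes, and 2 downward, 11.1% against 9.88%. With undetected genes at the bound 1 was downward. Their median was 0.55, or 0.49 at the bound, against 0.02 for all genes. The transporters Slc10a4 and Slc18a3 were far higher in GFP high cells, at log2 differences of 5.85 and 5.37, and they were also 4.82 and 4.12 higher in the GFP high sort than in the GFP low sort. Slc32a1, the vesicular GABA and glycine transporter, was 2.26 higher, Svop, a relative of Sv2, was 2.00 higher, Sncg, gamma-synuclein, was 1.54 higher, and Scamp5, a secretory carrier protein enriched in brain, was 1.00 higher, all on the log2 scale against GFP negative cells. Of these 6 genes, Slc18a3 was also among the motor neuron markers, and Slc32a1 among the interneuron markers, used to check the sort. Sypl, the widely expressed relative of synaptophysin, was lower by a log2 difference of -1.10, and Sypl2, a muscle relative, was at least 1.77-fold lower. Vesicle endocytosis had 17 detected genes, 3 past 2-fold upward, which is 17.6%, and 0 downward, and their median of 0.44 became 0.21 once undetected genes were set to the bound. These were the neuronal uncoating factor Dnajc6 at a log2 difference of 2.59, Pacsin1 at 1.67 and Amph at 1.17. The clathrin light chain Clta, used in all cells, was level at 11.42 (GFP high), 11.20 (GFP low) and 11.39 (GFP negative).

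**Figure D4:**
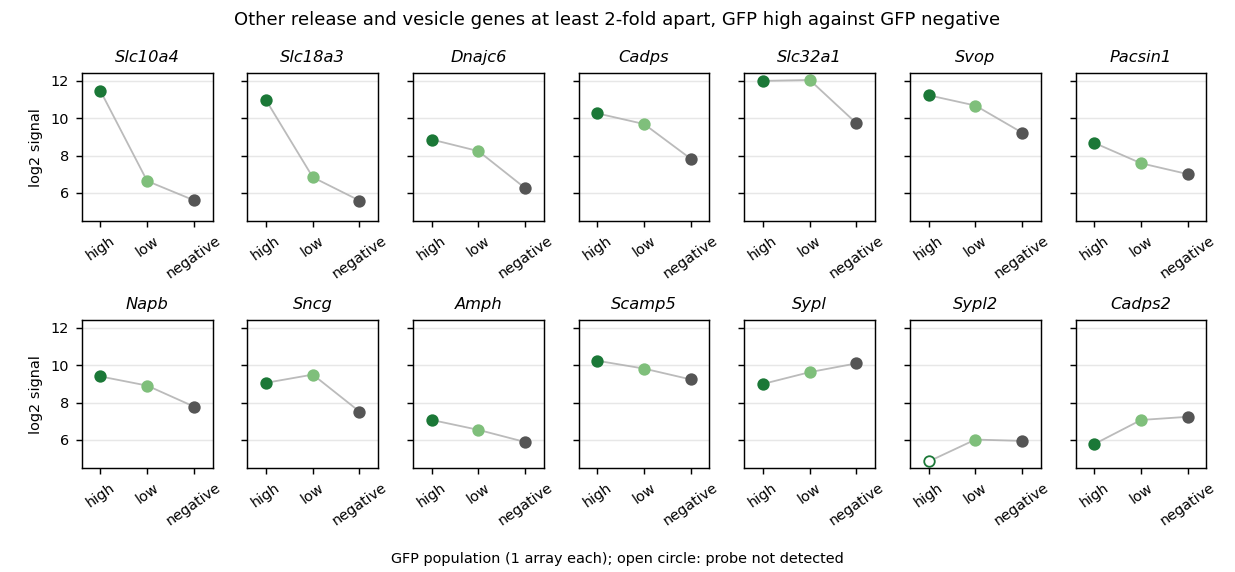
Log2 signal (vertical axis) on the GFP high, GFP low and GFP negative array for the 14 release and vesicle genes outside the member families that were at least 2-fold apart between GFP high and GFP negative cells, ordered by that difference. Filled circles are detected probes, and open circles are not detected. Slc10a4 and Slc18a3 drop between the GFP high and low arrays, while Slc32a1 and Sncg are at like levels on both.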

How the data were processed

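Per the labels' protocols, total RNA of the sorted populations was made into biotin-labelled cRNA and hybridised to 3 Illumina bead arrays. The authors deposited a signal intensity per probe without normalization, per the file headers, with minima of 76.7 (GFP high), 77.7 (GFP low) and 79.4 (GFP negative), so it still holds background. The authors also deposited a detection p-value per probe, per the file headers, which was matched to its array by being a monotone function of that array's intensities. GenomeStudio is named per the submitters' processing notes, with no version given in the sources used here. A processed value table that the authors deposited, a linear intensity with a floor of 10 that holds 47.5% of probes, was used as an alternative. Its medians were 12.6, 12.5 and 12.5, its background subtraction and scaling between arrays stay unknown, and over 5310 probes above 300 each array's departure from the 3-array mean correlated with that of the log2 intensities at 0.994, 0.991 and 0.994, which ties its columns to the arrays and its scale and direction to theirs.

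Intensities were corrected with normexp, using limma 3.58.1 in R 4.3.3, with the background read off the detection p-values and an offset of 16, and were then quantile normalised and converted to log2. The steps were tested on simulated data. The offset draws folds of dim genes toward 1. Counts and figures were made in Python 3.11.15 with numpy 2.4.6, pandas 2.3.3 and matplotlib 3.10.9. The platform annotation gives 1 symbol for 23978 probes, several for 0 and none for 1719. All 94 member symbols matched RefSeq through their gene ID and 0 differed. A fold against an undetected array sets the brighter signal against the lowest detected signal there, a log2 value of 5.13 (GFP high), 5.13 (GFP low) and 5.14 (GFP negative), or the dim probe's own if higher. Of the members, all detected genes could be named, with folds for those at least 2-fold apart and examples for the rest, and genes outside the families were named when at least 2-fold apart between GFP high and negative cells or as level counterparts chosen after their values were seen (Nsf, Clta). The members, lists and settings were chosen with earlier results of these data known. Alternatives to the background step, offset, normalization, source of values, detection filter, probe summary and membership were run.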

Additional observations from a re-analysis of the deposited data

How the results depend on the processing

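The lists of members at least 2-fold apart depended most on how dim signals were treated. Of the 9 genes higher and 8 lower in GFP high cells than in the GFP negative ones, 5 and 1 remained without the normexp step, 7 and 3 with an offset of 50, 8 and 8 with median centring, which lost Stx12, 8 and 4 when detection on both arrays was required and 9 and 8 in the authors' value table, where 1 gene joined each way. Without the normexp step the higher counts were 5 for GFP high against negative and 2 for GFP low against negative, and the lower counts were 1 and 0, and 0 for GFP high against low. With an offset of 50 the lower counts were 3, 0 and 1 for GFP high against negative, GFP high against low and GFP low against negative. Detection on both arrays gave lower counts of 4 for GFP high against negative and 1 for GFP low against negative, since genes undetected on an array are left out. The mean of a gene's probes gave lower counts of 5 and 1 for the same comparisons. Counting each probe, which counts genes with several probes more often, gave 14 higher for GFP high against negative, 1 higher and 3 lower for GFP high against low, and 8 higher for GFP low against negative. By the authors' value table, higher genes numbered 2 and lower genes 4 for GFP high against low, and lower genes 5 for GFP low against negative. The cause of those changes was not tested where the alternative's construction does not give it. Stx1a, Vamp2, Rab3a, Sv2a and Syt4 stayed past 2-fold upward between GFP high and negative cells under every alternative run. In the comparisons where a member was at least 2-fold apart, its gene-level difference kept its sign under the alternatives run. Doc2b, under 2-fold between GFP high and negative cells, had a log2 difference of -0.17 by its brightest probe and 0.27 by the mean of its probes, and the Syngr1 probes ranged from -1.86 to 0.87. The median of the members ranged from 0.08 to 0.40 for GFP high against negative, from 0.05 to 0.21 for GFP high against low and from 0.08 to 0.24 for GFP low against negative, lowest each time with no detection filter. No paired analysis was possible because each population had 1 array. Signal near background limits the dim genes, and the 36 members without a detected brightest probe have no direction here.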
